A study of Mus musculus with 3 samples.

Results

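Cells keep their free calcium low with ATP-driven pumps, and 7 mouse genes encode the pumps of the plasma membrane and of the endoplasmic reticulum. Atp2b1, Atp2b2, Atp2b3 and Atp2b4 encode the plasma membrane calcium ATPases PMCA1 to PMCA4, and Atp2a1, Atp2a2 and Atp2a3 encode the sarco/endoplasmic reticulum calcium ATPases SERCA1 to SERCA3. These 7 genes were chosen by name, as the whole of both families, among the 32285 genes of the feature list, and their unique molecular identifiers (UMIs, each standing for 1 captured RNA molecule) were counted in every kept cell. The libraries were made from the cochlea, the hearing organ of the inner ear, of untreated wild-type mice of the strain labelled C57/B6, which the study's methods name C57BL/6J. The bony wall was taken off first, and by the methods part of the basal turn was lost with it, so the epithelium came mainly from the other turns. Each library pooled 14 cochleae of 7 mice and was read as 3′ single-cell RNA-seq. There was 1 library at postnatal day (P) 14 and 2 at P28, so the ages could be set side by side but not tested. Where the library was a term of the test, p-values between cell classes measure the spread of the class difference between pooled libraries. Those libraries are of both ages, so a change of that difference with age counts as spread. In a comparison made at P28 only, without that term, p-values measure the spread between pooled libraries. Neither genotype nor treatment differed between the groups.

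Both families belong to the P-type ATPases, which pass a phosphate from ATP onto an aspartate of the pump during each transport cycle. PMCAs push calcium out of the cell, and SERCAs refill the stores of the reticulum. In the cochlea calcium enters the stereocilia of hair cells through the transduction channels and enters the base of inner hair cells (IHCs) through the calcium channels that trigger transmitter release. PMCA2 is known as the pump of the stereocilia of outer hair cells (OHCs), and mice without it are deaf. PMCA1 and SERCA2 are made in most tissues, PMCA3 mostly in neurons, SERCA1 in fast skeletal muscle, and SERCA3 in some blood, endothelial and epithelial cells.

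In the GENCODE M21 models of GRCm38 (mm10), the longest coding sequences of the 7 genes run from 994 codons in Atp2a1 to 1243 codons in Atp2b2. UMIs were counted per gene from 3′ ends, so the counts below do not separate splice variants of a gene.

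The libraries held 10125255, 35485894 and 37530956 UMIs in all, and 1662, 5651 and 7065 cells had 200 to 6000 genes and at most 15% mitochondrial UMIs, with a median of 2037 to 2477 UMIs per cell. Levels are given as counts per 1000000 UMIs of a cell class (CPM), and intervals are exact Poisson 95% intervals, which cover counting error only. Where 3 values follow each other they stand in library order, P14 and then P28 replicates 1 and 2. Any 2 libraries shared 4 to 10 barcode sequences among kept cells. Cells were clustered without the pump genes, and classes were named "-like" from markers, so names such as OHC stand for OHC-like and so on. All 8 OHC markers and 7 or 8 of 8 IHC markers marked the hair cell clusters, and 6 to 8 of 8 marked the clusters of spiral ganglion neurons (SGNs). In OHC-like cells Ocm, their calcium buffer, stood at 31352, 17404 and 17484 CPM, against 151, 270.3 and 323 CPM among the IHC-like. Otof, needed for release at the IHC synapse, stood at 3328, 3046 and 2935 CPM in IHC-like cells. No cluster of the P14 library was named SGN-like.

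Of the 7 genes, 4 made up nearly all pump UMIs of the kept cells. Atp2b1 gave 15393 UMIs (38.4% of them), Atp2a2 11864 (29.6%), Atp2b2 9337 (23.3%) and Atp2a3 2900 (7.23%). Atp2b4 had 354, Atp2b3 254 and Atp2a1 26 UMIs. The 4 abundant pumps had different leading classes or widely different spread over classes: Atp2a3 was held by IHC-like cells, Atp2b2 by SGN-like and OHC-like cells, Atp2a2 led in SGN-like cells, and Atp2b1 was present at over 50 CPM in every class of both ages.

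**Figure D1:**
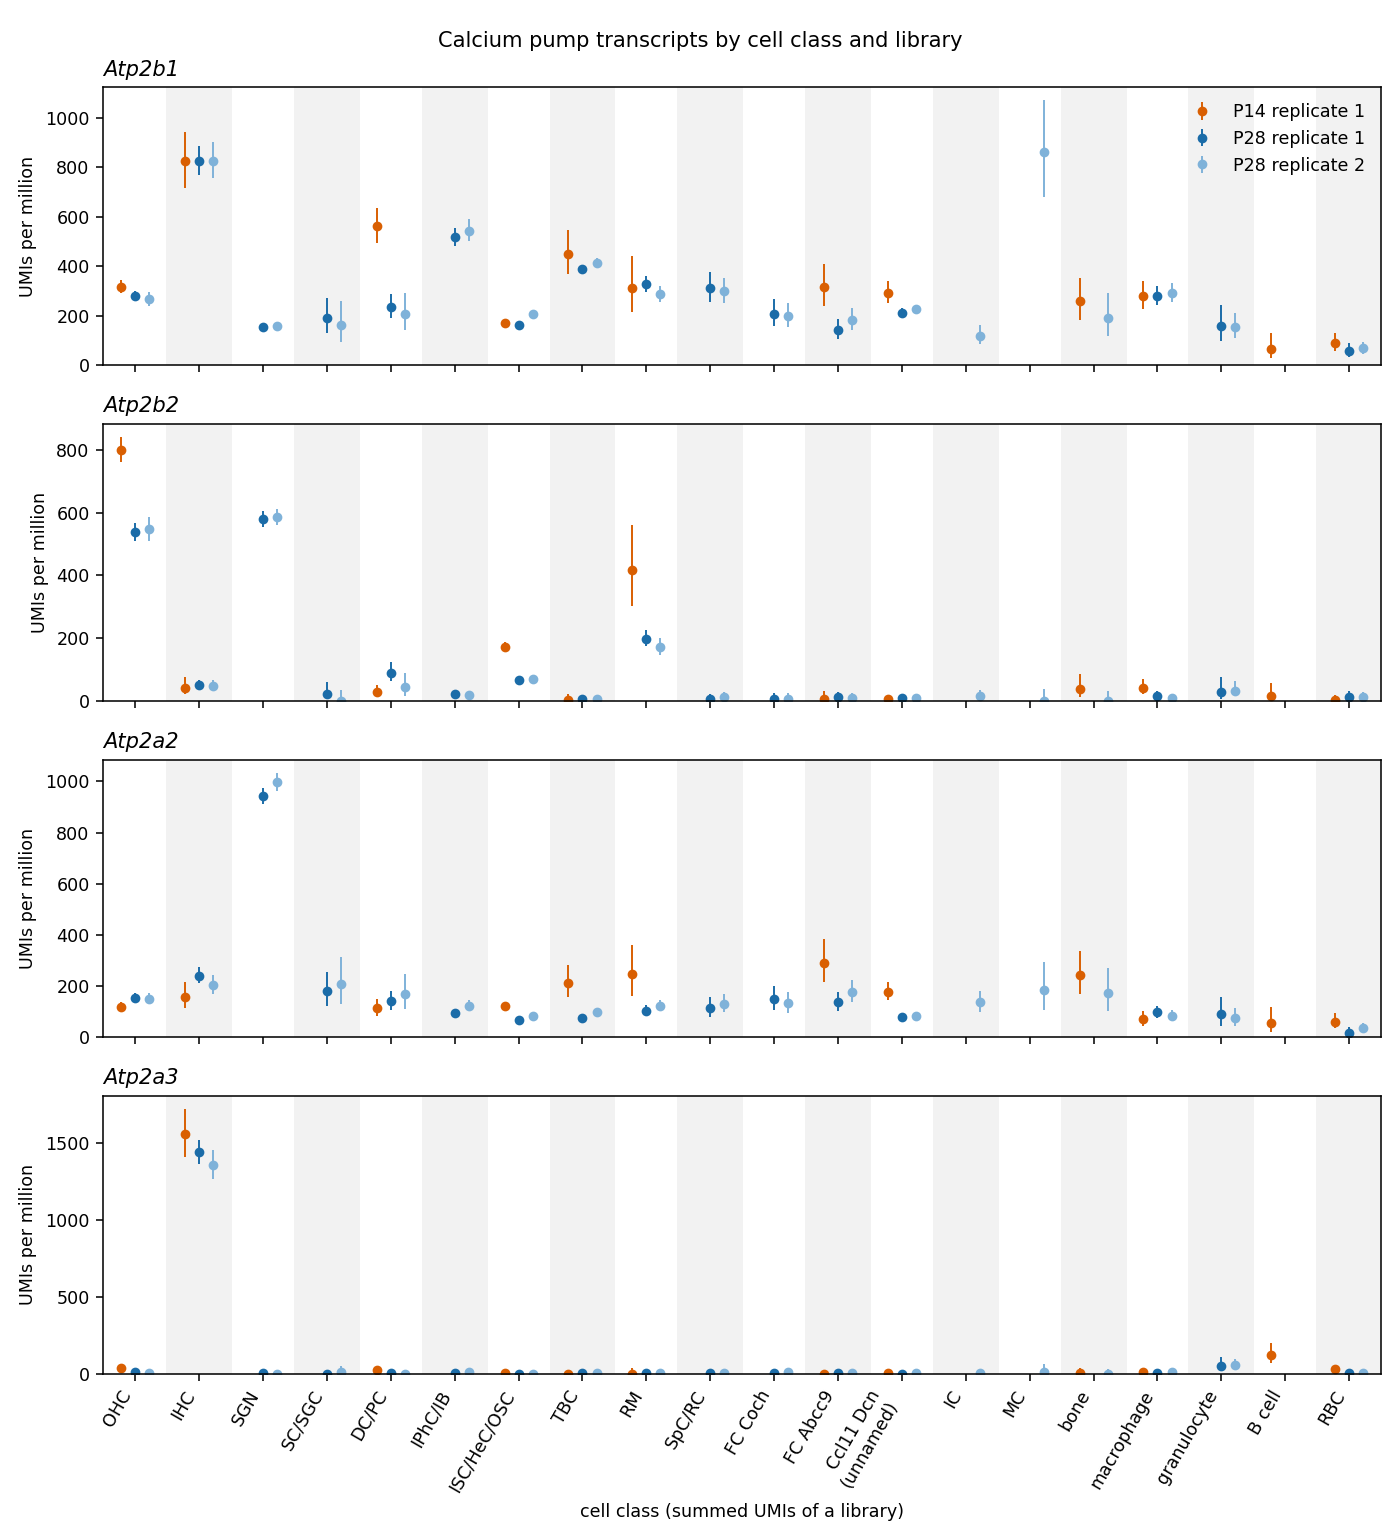
Level (CPM, y axis from 0) of the 4 abundant pumps in each cell class (x axis), 1 point per library with its exact Poisson 95% interval, for named and marker-defined classes of at least 10 cells. Atp2a3 stands between 1361 and 1561 CPM in the IHC-like cells of the 3 libraries and at or under 123 CPM in every other class, while Atp2b1 lies between 55.6 and 860.4 CPM over all classes.

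Atp2b1 was highest in IHC-like cells among the 17 classes with at least 10 cells in both P28 libraries. Its level there was 824 CPM at P14 and 827 and 827 CPM in the P28 libraries, a P28 mean of 827 ± 0.664 CPM (SD, n = 2). The 3 values differed by less than their counting error. Inner phalangeal and inner border cells (IPhC/IB-like), the supporting cells that surround the IHC, came next with 517 and 544 CPM at P28, and tympanic border cells (TBC-like), which line the underside of the basilar membrane, followed with 449.6 CPM at P14 and 387 and 413 CPM in the P28 libraries. The P28 intervals of these 3 classes did not overlap, while the TBC-like interval of P14, from 103 UMIs, reached that of the IPhC/IB-like cells. Below them Reissner's membrane (RM-like), spindle and root cells (SpC/RC-like), macrophage-like and OHC-like cells had P28 means of 306, 305, 285 and 272 CPM, and these neighbours were not separated by their intervals. SGN-like cells had 155 and 158 CPM. The lowest class at P28 was red blood cells, with 87.8 CPM at P14 and 55.6 and 66.8 CPM in the P28 libraries, and at P14 B cell-like cells were lower still, at 65.8 CPM. A small class of 21 marginal cells (MC-like), present in P28 replicate 2 only, had 860.4 CPM (681 to 1072). The IPhC/IB-like class was a single P28 cluster, named from 4 of 7 markers. No cluster was so named at a clustering resolution of 2 or with likely doublets removed. By count of molecules Atp2b1 was spread widely: TBC-like cells gave 23.7% of its UMIs, cells of the inner and outer sulcus and Hensen's cells (ISC/HeC/OSC-like) 11.9%, and OHC-like cells 10.6%.

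Atp2b2 was high in 2 classes. OHC-like cells had 799 CPM (759.5 to 841) at P14, 538 CPM (509 to 568) in P28 replicate 1 and 547 CPM (508 to 587) in P28 replicate 2. The P28 values of SGN-like cells were 578 and 585 CPM, and their interval overlapped that of the P28 OHC-like cells. RM-like cells were next, with 418 CPM at P14 and 199 and 173 CPM in the P28 libraries, followed by ISC/HeC/OSC-like cells with 171 CPM at P14 and 68.0 and 72.0 CPM in the P28 libraries. These 2 epithelial classes stood below the OHC-like cells in every library. Their Ocm levels were 105, 28.9 and 8.06 CPM and 54.2, 25.2 and 23.9 CPM in library order, and the part of OHC RNA in their Atp2b2 was not tested. IHC-like cells had only 43.6 CPM at P14 and 50.6 and 47.1 CPM in the P28 libraries, and TBC-like cells 4.37 CPM at P14 and 7.22 and 6.13 CPM in the P28 libraries. SGN-like cells held 41.5% of all Atp2b2 UMIs, OHC-like cells 38.1% and ISC/HeC/OSC-like cells 10.6%.

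Atp2b3 was found almost wholly in SGN-like cells. SGN-like cells had 36.2 and 37.0 CPM (124 and 120 UMIs) and held 96.1% of its UMIs, and no other class had more than 5.74 CPM in a library. In some small classes, such as the MC-like cells with a limit of 40.2 CPM, a count of 0 could not exclude the SGN level. Within the SGN-like cells it was the smallest of the 3 pumps led by neurons, at 36.6 CPM against 582 CPM for Atp2b2 and 970.4 CPM for Atp2a2. These are counts of 3′ ends, which do not scale with gene length. Atp2b4 was low everywhere. Its highest P28 mean was 47.1 ± 8.10 CPM (SD, n = 2) in granulocyte-like cells, from 7 and 11 UMIs. This class also held B cell markers, given below with Atp2a3. At a clustering resolution of 2 B cell-like cells led instead, and other classes led under some other settings. OHC-like cells had 2.13 CPM at P14 and 8.30 and 8.65 CPM in the P28 libraries. No class was separated by its intervals from the next in the P28 order, while classes far apart in it were: granulocyte-like cells, for one, stood clear of the ISC/HeC/OSC-like cells, which had 1.17 and 2.83 CPM.

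Among the SERCA genes, Atp2a1 was close to the limit of detection, with 26 UMIs in all kept cells. OHC-like cells gave 3, 5 and 6 of them, 53.8% of the total from 6.41% of the cells, and the level there was 1.60 CPM at P14 and 2.07 and 4.33 CPM in the P28 libraries. Skeletal muscle markers, a list of 6 genes, summed to 24.0, 7.05 and 8.65 CPM in the same cells, with 4, 3 and 3 of the 6 present and Ckm and Myh4 at 0 in all 3 libraries. Their part in the Atp2a1 counts was not tested.

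Atp2a2 was present in every class and led in SGN-like cells, at 943 and 998 CPM (P28 mean 970.4 ± 39.1 CPM, SD, n = 2), which held 54.4% of its UMIs. In the P28 order IHC-like cells followed, with 158 CPM at P14 and 241 and 205 CPM in the P28 libraries, and the P28 intervals of both classes were far apart. At P14, where no cell was SGN-like, several classes stood above the IHC-like cells, led by mesenchymal cells marked by Abcc9 at 293 CPM. OHC-like cells had 121 CPM at P14 and 156 and 152 CPM in the P28 libraries. Between IHC-like cells and the ISC/HeC/OSC-like cells, at 76.8 CPM, successive classes in the P28 order overlapped, and red blood cells were lowest at 27.5 CPM.

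Atp2a3 was concentrated in 1 small class. IHC-like cells had 1561 CPM (1411 to 1723) at P14 and 1444 CPM (1369 to 1521) and 1361 CPM (1268 to 1458) at P28, and held 89.7% of its UMIs in 1.73% of the kept cells. The next class at P28, granulocyte-like cells, had 52.8 and 56.4 CPM, and the class also held all 7 B cell markers, summing to 4995 and 3086 CPM. B cell-like cells, present at P14 only, had 123 CPM (69.1 to 204). OHC-like cells had 37.3 CPM at P14 and 9.54 and 4.33 CPM in the P28 libraries. The T cell and granulocyte lists summed to at most 3.96 CPM in IHC-like cells. Of the 7 B cell markers, Ms4a1 was at 0 in the IHC-like cells of all 3 libraries, which leaves the rest of that list unread. Ighm, another of these markers, was among the leading genes of P14 OHC-like clusters. The part of B cell RNA in the Atp2a3 of hair cells was not tested.

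Shares of cells were compared after each cell was thinned to 1000 UMIs, leaving out shallower cells. Among IHC-like cells the share with Atp2a3 was then 71.0%, 71.7% and 76.4% in library order, and among OHC-like cells 1.54%, 1.11% and 0.704%. For Atp2b2 the share was 57.3%, 40.7% and 45.8% among OHC-like cells, 43.1% and 37.8% among SGN-like cells, and 6.45%, 7.07% and 2.78% among IHC-like cells. In macrophage-like cells the share was 1.59%, 2.30% and 1.02%. The exact binomial 95% intervals of the IHC and macrophage shares overlapped in every library, so the shares did not tell them apart. By level they differed at P28, where IHC-like cells had 50.6 CPM (37.4 to 66.8) and 47.1 CPM (31.3 to 68.1) and macrophage-like cells 18.2 CPM (9.68 to 31.1) and 8.84 CPM (3.55 to 18.2), and not at P14. Without thinning, a UMI of Atp2b2 was seen in 94.6%, 92.2% and 85.9% of OHC-like cells and Atp2a3 in 71.7%, 82.3% and 92.1% of IHC-like cells, whose median depths were 6510, 5242 and 3752 and 1026, 9310 and 8008 UMIs per cell. Macrophage-like cells had a median of 3592, 2257 and 2084 UMIs. The cells left out by the thinning were 29, 14 and 4 IHC-like and 17, 2 and 0 OHC-like cells. At this depth Atp2b1 and Atp2b2 were found together in 39 of 260, 34 of 359 and 32 of 284 OHC-like cells, and Atp2b1 and Atp2a3 together in 10 of 31, 39 of 99 and 30 of 72 IHC-like cells. Doublets were not removed, and no background share of such pairs was measured.

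The mix of pumps set the 3 sensory classes apart from each other. Summed over the 7 genes, pump RNA came to 2595, 2570.3 and 2445 CPM in IHC-like cells, 1718 and 1785 CPM in SGN-like cells, and 1279, 993 and 982 CPM in OHC-like cells. In OHC-like cells the plasma membrane pumps made up 87.5%, 83.2% and 83.6% of these UMIs, and Atp2b2 alone 62.5%, 54.2% and 55.7%. In IHC-like cells the plasma membrane share was 33.7%, 34.4% and 36.0%, nearly all of it Atp2b1, and Atp2a3 gave 60.2%, 56.2% and 55.6%. SGN-like cells lay between, with plasma membrane shares of 45.0% and 44.1%, Atp2a2 at 54.9% and 55.9% and Atp2b2 at 33.6% and 32.8%. The IHC and OHC ranges did not overlap. The plasma membrane share alone was not particular to OHC-like or SGN-like cells. In the P28 libraries it was 83.4% and 80.7% in TBC-like cells and 83.2% and 78.2% in RM-like cells. Schwann and satellite glial cells (SC/SGC-like) had 53.7% and 43.9%, from 67 and 41 pump UMIs. In the IPhC/IB-like neighbours of the IHC, Atp2b1 alone gave 80.0% and 76.7%.

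**Figure D2:**
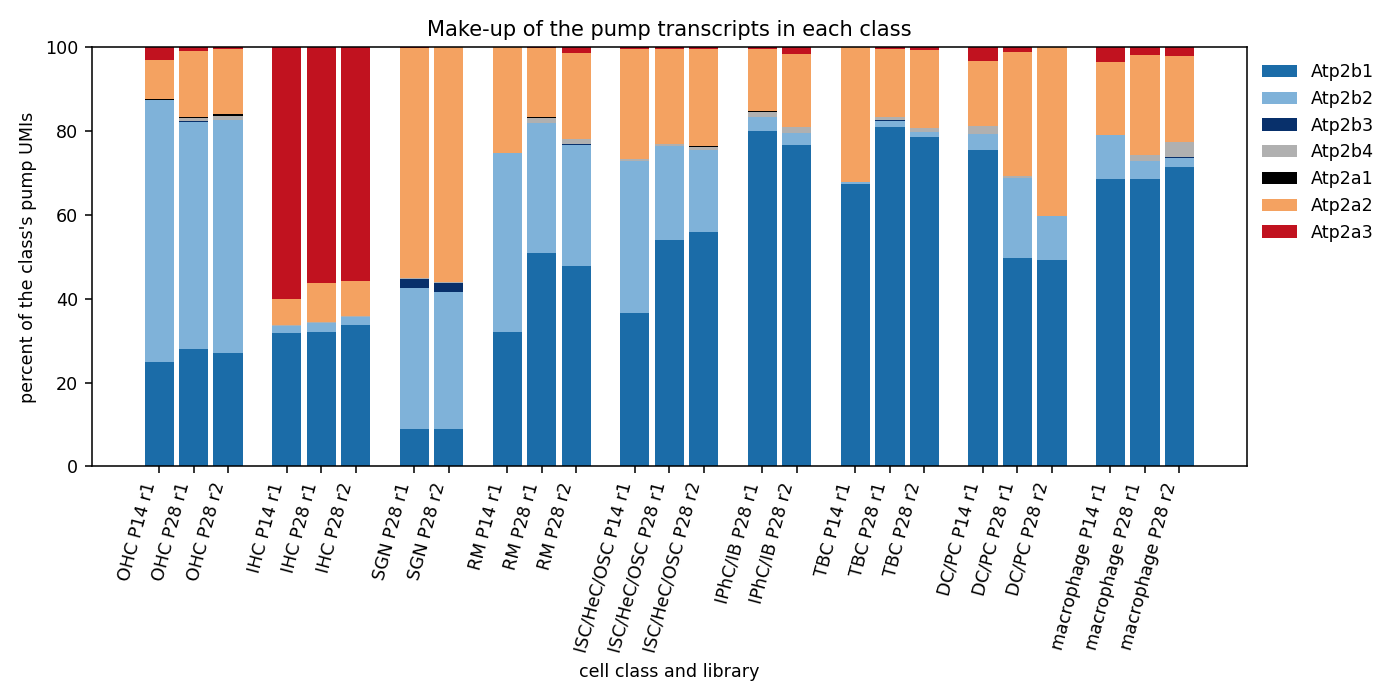
Share (%) of each pump among all pump UMIs of a class, for 9 classes, 1 bar per class and library. Atp2b2 takes over 50% of the bar in OHC-like cells, Atp2a3 over 50% in IHC-like cells and Atp2a2 over 50% in SGN-like cells.

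The comparison between hair cells asked which pumps separate the OHC-like from the IHC-like cells of the same libraries, with the UMIs summed per class and library (3 against 3, the library as a term in edgeR's quasi-likelihood test). Of the 4 pumps with enough UMIs to be tested, Atp2b2 was higher in OHC-like cells, Atp2b1 and Atp2a3 were lower, and Atp2a2 did not pass. This is 3 of 4 called, beside 34.2% of all genes tested in this comparison. Among OHC-like cells Atp2b2 stood at 799, 538 and 547 CPM, and among IHC-like cells at 43.6, 50.6 and 47.1 CPM, 13.7-fold higher (log2 fold change 3.78, SE 0.20, edgeR adjusted p = 8.8e-07). Atp2b1 stood at 318, 279 and 266 CPM against 824, 827 and 827 CPM (log2 fold change -1.39, SE 0.14, edgeR adjusted p = 4.86e-05). Atp2a3 stood at 37.3, 9.54 and 4.33 CPM against 1561, 1444 and 1361 CPM, 89.1-fold lower (log2 fold change -6.48, SE 0.42, edgeR adjusted p = 3.23e-06). For each of these 3 genes the OHC and IHC values did not overlap. Atp2a2, the pump of most tissues, stood at 121, 156 and 152 CPM against 158, 241 and 205 CPM (log2 fold change -0.36, SE 0.15, edgeR adjusted p = 0.0908), and was lower in OHC-like cells in 3 of 3 libraries. Within OHC-like cells Otof stood at 69.8, 505 and 439 CPM, and the part of IHC RNA in their Atp2a3 was not tested.

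**Figure D3:**
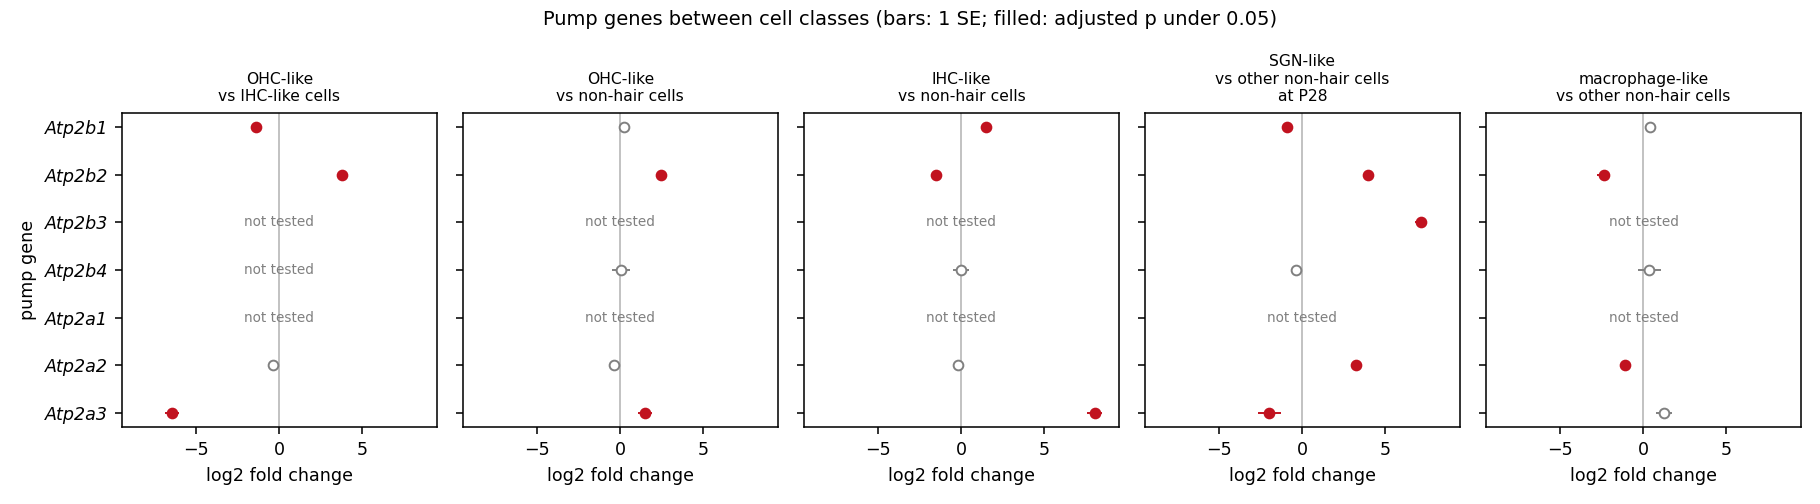
Log2 fold change of each tested pump (x axis) in the 5 class comparisons, with bars of 1 SE from edgeR, filled where the adjusted p was under 0.05. Atp2b2 lies right of 0 for OHC-like cells in both of their comparisons and for SGN-like cells, and Atp2a3 lies at 8.03 for IHC-like against non-hair cells.

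Against all non-hair cells of the same library, OHC-like cells were set apart by Atp2b2, at 799, 538 and 547 CPM against 106, 127 and 115 CPM, 5.56-fold higher (log2 fold change 2.48, SE 0.18, edgeR adjusted p = 0.00232). The non-hair cells differed in make-up: at P28 SGN-like cells gave 73.7% and 77.5% of their Atp2b2 and 67.3% and 62.9% of their Atp2a2, and at P14 none. Without them, an alternative chosen after the data were seen, non-hair Atp2b2 was 106, 39.7 and 30.5 CPM and the call stayed (log2 fold change 3.48, edgeR adjusted p = 0.000419). Atp2a3 also passed (log2 fold change 1.496, SE 0.44, edgeR adjusted p = 0.0426), but its values of 37.3, 9.54 and 4.33 CPM against 9.99, 2.50 and 4.36 CPM overlapped between the groups, it was higher in 2 of 3 libraries, and the call was lost without the library term, where edgeR's adjusted p was 0.146, and without the SGN-like cells (edgeR adjusted p = 0.0573). The pumps called were thus 2 of 5 tested, beside 54.6% of all genes. Atp2b1 stood at 318, 279 and 266 CPM against 239, 251 and 266 CPM and did not pass (log2 fold change 0.25, SE 0.12, edgeR adjusted p = 0.15). Atp2a2 (log2 fold change -0.40, SE 0.13, edgeR adjusted p = 0.0595) and Atp2b4 (log2 fold change 0.02, SE 0.53, edgeR adjusted p = 0.975) did not pass either. Against non-hair cells without SGN-like cells, at 136, 88.1 and 106 CPM, the Atp2a2 value turned upwards and again did not pass (log2 fold change 0.26, edgeR adjusted p = 0.291).

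IHC-like cells differed from non-hair cells in 3 of the 5 pumps tested, beside 35.7% of all genes. Atp2a3 stood at 1561, 1444 and 1361 CPM against 9.99, 2.50 and 4.36 CPM (log2 fold change 8.03, SE 0.47, edgeR adjusted p = 0.00013). Atp2b1 was higher, at 824, 827 and 827 CPM against 239, 251 and 266 CPM, 2.81-fold (log2 fold change 1.49, SE 0.19, edgeR adjusted p = 0.00154). Atp2b2 was lower, at 43.6, 50.6 and 47.1 CPM against 106, 127 and 115 CPM (log2 fold change -1.52, SE 0.20, edgeR adjusted p = 0.00187), and no value of the 3 genes overlapped between the groups. Most of that non-hair Atp2b2 was again SGN-like at P28. Without those cells the non-hair level of 39.7 and 30.5 CPM lay under the IHC level in both P28 libraries and the call was lost (log2 fold change -0.27, edgeR adjusted p = 0.501). Atp2a2 and Atp2b4 did not pass, with log2 fold changes of -0.20 and -0.03 (edgeR adjusted p = 0.467 and 0.987). The Atp2a2 value turned upwards without the SGN-like cells, with no call (log2 fold change 0.62, edgeR adjusted p = 0.0621), and IHC-like cells then stood above the non-hair cells in 3 of 3 libraries.

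SGN-like cells could be compared only at P28, with 2 sums against 2 and no library term. In this comparison 78.5% of all genes were called, so a call alone sets no pump apart, and 5 of the 6 pumps tested were called. Atp2a2 stood at 943 and 998 CPM against 88.1 and 106 CPM in the other non-hair cells, 9.22-fold higher (log2 fold change 3.20, SE 0.13, edgeR adjusted p = 1.4e-07). Atp2b2 stood at 578 and 585 CPM against 39.7 and 30.5 CPM, 15.2-fold higher (log2 fold change 3.93, SE 0.14, edgeR adjusted p = 8.53e-08). Atp2b3 was higher too (log2 fold change 7.17, SE 0.36, edgeR adjusted p = 4.37e-07). The 124 and 120 UMIs of SGN-like cells faced 1 and 7 UMIs in all the other non-hair cells, and the ratio of the levels over both libraries was 164 (exact 95% interval 82.1 to 385, counting error only). Atp2b1 was lower, at 155 and 158 CPM against 269.6 and 285 CPM (log2 fold change -0.95, SE 0.10, edgeR adjusted p = 4.15e-05). Atp2a3 was called lower from 6 and 1 UMIs (log2 fold change -1.99, SE 0.68, edgeR adjusted p = 0.0259), which rest on very few molecules, and Atp2b4 did not pass (edgeR adjusted p = 0.268).

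Macrophage-like cells, the resident immune cells, had less Atp2b2 and less Atp2a2 than the other non-hair cells, 2 calls among 5 pumps tested beside 26.1% of all genes. The P14 class was mixed: all 7 granulocyte markers were present and summed to 18016 CPM, against 106 and 78.3 CPM at P28. At a clustering resolution of 2 the P14 library held 29 macrophage-like and 47 granulocyte-like cells, and both calls stayed. Atp2b2 stood at 42.8, 18.2 and 8.84 CPM against 110.2, 130.3 and 119 CPM (log2 fold change -2.40, SE 0.41, edgeR adjusted p = 0.00579). At P14, where the macrophage value was highest, these cells also held 959 CPM of Ocm, against 16.8 and 48.0 CPM at P28, and the part of OHC RNA in their Atp2b2 was not tested. Atp2a2 stood at 71.4, 97.9 and 83.3 CPM against 141, 230.4 and 247 CPM (log2 fold change -1.08, SE 0.21, edgeR adjusted p = 0.0105), and both calls were lost without P28 replicate 1 (edgeR adjusted p = 0.0581 and 0.108). The comparator again held the SGN-like cells. Without them it stood at 141, 87.6 and 107 CPM, the macrophage value lay above it in P28 replicate 1 and the Atp2a2 call was lost (log2 fold change -0.21, edgeR adjusted p = 0.585), while that of Atp2b2 stayed (log2 fold change -1.28, edgeR adjusted p = 0.0108). Atp2b1 stood at 279.8, 279.6 and 290.4 CPM against 236 to 265 CPM, and did not pass (log2 fold change 0.37, SE 0.18, edgeR adjusted p = 0.181).

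Several classes held more than 1 cluster, and the pumps varied among them. IHC-like cells at P28 fell into a deep cluster of 85 and 67 cells, with Atp2a3 at 1478 and 1376 CPM, and a shallow cluster whose 28 cells of replicate 1 had Atp2a3 at 517 CPM, Atp2b1 at 345 CPM and no Atp2b2 UMI. The class values above change little without the shallow cluster: Atp2b1 in the deep cluster alone was 844 and 834 CPM. Atp2a3 was among the 10 genes of highest fold in the deep P28 cluster and in the P14 IHC-like cluster, which describes these clusters and is no test. The 60 IHC-like cells of P14 were shallow, and 25 barcodes of that library lay over the limit of 6000 genes and were left out. Those barcodes held 366 UMIs of Atp2a3, 350.3 CPM (315 to 388), beside 599 CPM of Otof, 1297 CPM of Ocm and 437 CPM of Nefh, so markers of IHCs, OHCs and neurons were all present.

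Atp2b2 was high in every OHC-like cluster. The 3 clusters of P14 had 833, 706 and 970.4 CPM, the last of them 33 shallow cells with a high share of nuclear RNA, and the 2 clusters of P28 had 507 and 496 CPM and 618 and 641 CPM. Each P14 value was thus above each P28 value. Atp2a3 in the P14 clusters was 29.96, 57.6 and 0 CPM. SGN-like clusters were less alike. The deepest had Atp2a2 at 1013 and 1047 CPM and Atp2b2 at 615 and 607 CPM, a shallower one had 456 and 643 CPM and 344 and 386 CPM, and a nucleus-like one of 42 cells had 394 and 655 CPM and 533 and 803 CPM. Atp2b2 in RM-like cells was at 245 and 226 CPM in the larger P28 cluster and 66.2 and 52.8 CPM in the smaller, at like median depths of 2230 and 1900 against 2492 and 2156 UMIs per cell.

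**Figure D4:**
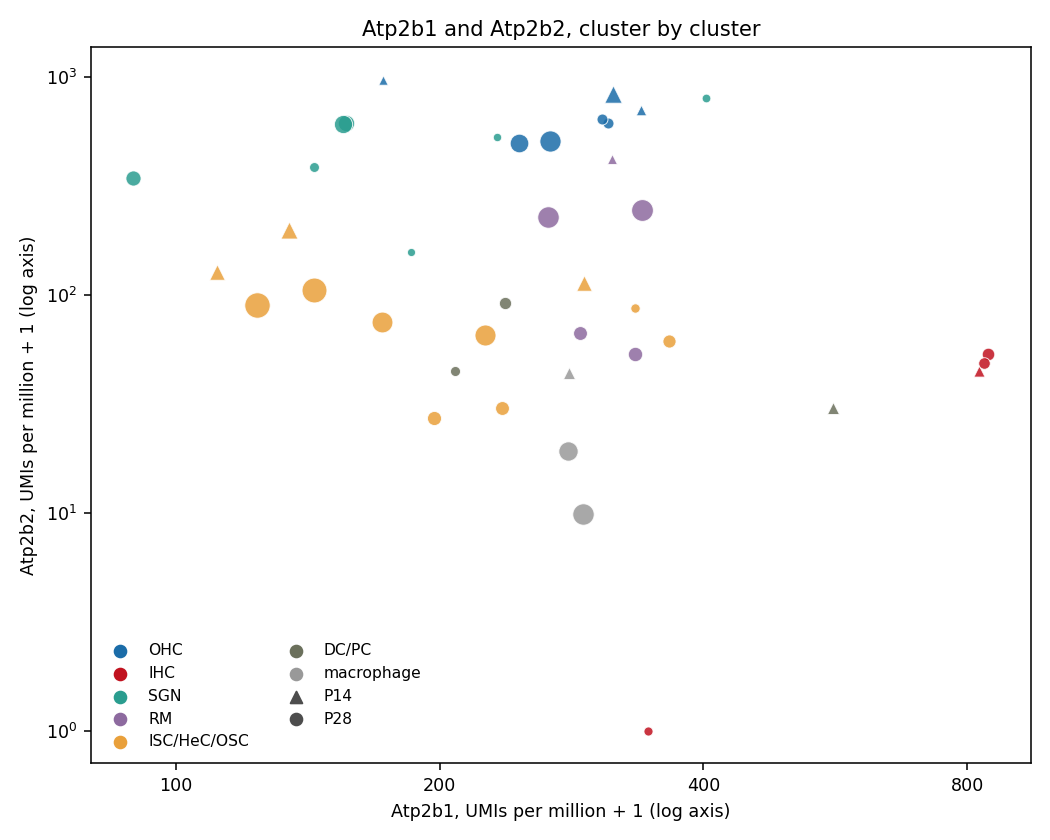
Atp2b1 (x axis) against Atp2b2 (y axis), both as CPM + 1 on log axes, 1 point per cluster and library of 7 classes, sized by its number of cells. OHC-like and SGN-like clusters lie high on the Atp2b2 axis, and IHC-like clusters of the deep cells lie furthest right, at over 800 CPM of Atp2b1, with Atp2b2 at or below 52.4 CPM.

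Between the ages no test was possible, and age, library, cell yield and the make-up of a class cannot be told apart. In the 11 classes present at both ages, the P14 interval lay above both P28 intervals in 11 of the 77 pairs of pump and class and in no pair below both. Of the pairs with at least 10 UMIs over the libraries, these were 11 of 53 for the pumps, beside 6.68% above and 5.57% below among the 120454 pairs of all genes. The pairs of all genes were not matched to the pumps for UMI count, on which the width of an interval depends. Pairs also share classes and libraries, so the shares are descriptions. Atp2b2 was 1.47 times its P28 mean in OHC-like cells (799 CPM at P14 and 538 and 547 CPM in the P28 libraries), 2.25 times in RM-like and 2.45 times in ISC/HeC/OSC-like cells. Atp2b1 was 2.53 times its P28 mean in Deiters' and pillar cells (DC/PC-like), at 561 CPM at P14 and 236 and 207 CPM in the P28 libraries. No P14 cluster was named IPhC/IB-like, a class with a P28 mean of 531 CPM. Slitrk6 and Otogl were among the leading genes of both the P14 DC/PC-like and the P28 IPhC/IB-like cluster. Otogl was also among those of the P28 DC/PC-like cluster. The part of IPhC/IB cells in the P14 DC/PC-like value was not tested. In mesenchymal cells marked by Abcc9 Atp2b1 was 1.95 times its P28 mean, at 316 CPM at P14 and 142 and 182 CPM in the P28 libraries. Atp2a2 was 2.45 times its P28 mean in TBC-like, 2.17 times in RM-like and 1.60 times in ISC/HeC/OSC-like cells. Atp2a3 was 5.38 times its P28 mean in OHC-like cells, the largest of these ratios, from 70 UMIs at P14. Summed over all non-hair cells, Atp2a3 was also higher at P14, at 9.99 CPM against 2.50 and 4.36 CPM in the P28 libraries. That sum held B cell-like cells at P14 only. The remaining 2 pairs were Atp2a2 and Atp2b1 in an unnamed class marked by Ccl11 and Dcn, at 2.17 and 1.34 times. IHC-like cells showed no such pair, and their Atp2a3 and Atp2b1 intervals overlapped between the ages. Beside the RM-like values, Ocm was 105 CPM in RM-like cells at P14 against 28.9 and 8.06 CPM at P28, with Slc26a5, the motor protein of OHCs, at 0, 0.85 and 0 CPM.

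Other genes of calcium transport, 41 in 8 lists, were read in the same comparisons. Between OHC-like and IHC-like cells 24 were tested, 3 were higher in OHC-like cells and 6 lower, beside 17% and 17.2% of all genes. The median log2 fold change of the tested genes was -0.09, and that of all genes 0.05. Of the 9 exchangers, which move calcium against sodium, 5 were tested and 2 passed, 1 in each direction. For Slc8a2 (NCX2) the OHC-like values were 171, 403 and 369 CPM and the IHC-like values 59.4, 60.9 and 70.6 CPM (log2 fold change 2.50, SE 0.22, edgeR adjusted p = 2.03e-05). Slc24a3 (NCKX3), which also moves potassium, stood at 23.5, 11.6 and 10.1 CPM against 428, 204 and 203 CPM in IHC-like cells (log2 fold change -4.06, SE 0.17, edgeR adjusted p = 3.58e-07), and for both genes the groups did not overlap. Of the pumps of the Golgi, Atp2c2 was higher in OHC-like cells, at 41.6, 9.96 and 9.37 against 7.92, 2.06 and 5.05 CPM. Those IHC-like values rest on at most 3 UMIs per library. The other Golgi pump, Atp2c1, was lower in OHC-like cells. Itpr2 (an IP3 receptor), Orai3 (a channel of store-operated entry) and Smdt1 (a subunit of the mitochondrial uniporter) were also lower in OHC-like cells. Ryr2, a release channel of the reticulum, was the other gene higher there, at 23.5, 54.8 and 41.8 CPM against 0, 0 and 1.68 CPM.

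Neuroplastin (Nptn) and basigin (Bsg), subunits that bind PMCAs in the membrane, went opposite ways in both hair cell classes against non-hair cells. Nptn was higher in OHC-like cells, at 338, 541 and 530.0 CPM against 123, 251 and 244 CPM (log2 fold change 1.29, SE 0.12, edgeR adjusted p = 0.00358), and in IHC-like cells (log2 fold change 0.85, SE 0.19, edgeR adjusted p = 0.0139). Bsg was lower in both (log2 fold change -0.93, SE 0.26, edgeR adjusted p = 0.0367, and log2 fold change -1.32, SE 0.32, edgeR adjusted p = 0.0206). SGN-like cells also held more Nptn, 728 and 726 CPM against 159 and 158 CPM (log2 fold change 2.08, SE 0.10, edgeR adjusted p = 3.01e-07). Among the exchangers Slc24a2 led in SGN-like cells, with 663 and 626 CPM against 2.08 and 4.76 CPM (log2 fold change 7.43, SE 0.30, edgeR adjusted p = 1.48e-07). Of the release channels, Ryr1 was higher in OHC-like than in non-hair cells, with 119, 4.98 and 7.93 CPM (log2 fold change 5.88, SE 0.29, edgeR adjusted p = 0.00123), and the P14 value was far above both P28 values. The IP3 receptors Itpr1, Itpr2 and Itpr3 were all lower in OHC-like than in non-hair cells and all lower in SGN-like than in other non-hair cells.

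Counted over the 41 genes, the calls of OHC-like against non-hair cells came to 8 higher and 11 lower of 31 tested, 5 of 29 higher and 10 lower in IHC-like cells, 12 of 32 higher and 14 lower in SGN-like cells, and 4 of 27 higher and 2 lower in macrophage-like cells. The shares of all genes called higher and lower were 24% and 30.6%, 13.3% and 22.3%, 36.1% and 42.4%, and 13.3% and 12.8% in the same order. In macrophage-like cells the higher genes were the exchanger Slc8a1, the store-operated channels Orai1 and Orai2 and the uniporter subunit Mcub, and the lower ones Itpr1 and Micu3. With SGN-like cells left out of the comparator, Micu3 no longer passed there (edgeR adjusted p = 0.294) and Bsg was called lower (edgeR adjusted p = 0.045). The calls came to 9 higher and 14 lower of 31 tested in OHC-like cells, beside 3132 and 4896 of 12936 genes. In IHC-like cells they came to 6 and 12 of 27, and in macrophage-like cells to 4 and 2 of 27. No share of all genes stands beside the IHC-like and macrophage-like counts, so they are no result about these lists. Among the genes then tested, the call changed for 6 in OHC-like, 7 in IHC-like and 2 in macrophage-like cells. Slc24a2 and Ryr3, called lower in IHC-like cells in the main fit, were no longer tested there and are not counted. Among IHC-like cells Slc8a1 was then higher (edgeR adjusted p = 0.000593) and Smdt1 no longer passed (edgeR adjusted p = 0.0509). Of the 6 regulators of SERCA, Mrln was the only one tested in any comparison.

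The genes whose pattern was most like each abundant pump were taken by Pearson correlation of log2(CPM + 10) over 44 sums of 19 classes and 3 libraries, among 5396 other genes. Atp2b1 was nearest to Golgb1 (r = 0.764), Tm9sf2 (0.748) and Kdm6b (0.742), and Atp2b2 to Sema3a (0.797), Erich3 (0.753) and Fam57b (0.753). Atp2a2 was nearest to Ppp3cb (0.875), which encodes a calcineurin subunit, Ubr3 (0.873) and Copg1 (0.869). Atp2a3 was nearest to Ripor3 (0.859) and Slc17a8 (0.849), both among the markers that named the IHC-like clusters, and to Lyst (0.798). Sums of 1 library share its depth and free RNA, so these values are descriptions.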

How the data were processed

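Single-cell suspensions of collagenase-treated cochleae were made into 10x 3′ libraries of polyadenylated RNA. The values are raw UMI counts per gene and barcode, which the authors deposited as 1 matrix per library, made with Cell Ranger (5.0.1 in the matrix headers, 6.0.1 in the submitters' processing notes) on mm10. Barcodes with 200 to 6000 genes and at most 15% mitochondrial UMIs were kept. The count precision is that of the UMIs printed, and PCR duplicates are merged by the UMI. The 7 genes and all lists were chosen with earlier results of these data known. Cells were clustered with Seurat 5.3.0 in R 4.3.3, P14 alone and the P28 libraries integrated, on 2000 variable genes that left out pump and calcium genes, 30 principal components and resolution 1. A cluster was named from its marker list where at least 3 markers passed a log2 ratio of 1 and 5% of cells. The demand for a defining marker was added after the clusters were seen. Doublets were not removed except in an alternative. UMIs were summed per class and library (at least 10 cells) and tested with edgeR 4.0.16 (TMM, filterByExpr, glmQLFTest, Benjamini-Hochberg, 0.05) over all genes. The class sums of a library come from the same animals, so the library was a term, and deviations from the class means correlated at 0.123 to 0.508 within libraries. SGN-like sums (2 against 2) had no such term. SE is the log2 fold change over the root of F. The test was checked on simulated counts. Genes like a pump were sought at 100 CPM or more in a sum and 1000 or more UMIs in all, for pumps with at least 500 UMIs. DESeq2 1.42.0, other filters, limits, scalings and left-out libraries were tried as alternatives, and non-hair cells without SGN-like cells as one chosen after seeing the data. A few genes and sequences are not reported here.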

Additional observations from a re-analysis of the deposited data

Results flagged for a closer look

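Barcodes outside the limits on genes and mitochondrial UMIs entered no comparison, and all 7 pumps were found in them. Over the 3 libraries their levels were 208 CPM for Atp2b1, 101 CPM for Atp2b2, 2.66 CPM for Atp2b3, 5.93 CPM for Atp2b4, 0.288 CPM for Atp2a1, 149 CPM for Atp2a2 and 31.9 CPM for Atp2a3. In the kept cells the same genes stood at 278, 169, 4.59, 6.40, 0.47, 214 and 52.4 CPM. In the P14 library Atp2a3 stood at 180.1 CPM in left-out against 69.6 CPM in kept barcodes.

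Atp2b4 in OHC-like against non-hair cells went opposite ways at the 2 ages, with a log2 ratio of levels of -1.71 at P14 and 0.63 and 0.26 in the P28 libraries. The difference between the ages was not tested, and the OHC-like values rest on 4, 20 and 12 UMIs.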

How the results depend on the processing

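The 3 pumps called between OHC-like and IHC-like cells and the 3 between IHC-like and non-hair cells stayed within 2 to 4 calls in every alternative. Between OHC-like and IHC-like cells, 1610 of all 9481 genes tested were higher and 1633 lower in the main fit. Without P14 these were 2372 and 2549 of 9975, and without P28 replicate 1, 679 and 833 of 9255. The calls over all genes thus moved widely beside few pumps tested. OHC-like against non-hair cells gave 2 calls, but 4 with no filter on low counts, 1 without the library as replicate block, 1 under limits of 3000 genes and 15000 UMIs per cell, 1 with up to 30% mitochondrial UMIs, 1 without SGN-like cells among the non-hair cells, and 1 to 6 with a library left out, 6 of them without P14 and 1 without P28 replicate 1. The call lost was Atp2a3, and its cause was not tested. Over all genes, 3120 were higher and 3970 lower of 12993 in the main fit of OHC-like against non-hair cells. Without P14 these were 4611 and 5796 of 15091, and without P28 replicate 1, 1031 and 1650 of 12967. Calls over all genes thus also rose in the former and fell in the latter. SGN-like cells gave 5 calls, also with the replicate block, and 3 where 10 UMIs were needed in every sum, since fewer pumps were then tested. No fit without a library was possible there, with 1 sum against 1. Macrophage-like cells gave 2 calls, but 1 with 10 UMIs in every sum, 1 under the limits of 3000 genes, 1 without SGN-like cells in the comparator and 0 to 4 with a library left out (0 without P28 replicate 1, 1 without P28 replicate 2, 4 without P14), where the cause was not tested. The calls over all genes under the alternatives are not set beside the counts of macrophage-like, SGN-like and IHC-like against non-hair cells. Those counts are thus no result about the pumps alone. Of 7 pumps, 4 kept their leading P28 class when likely doublets were removed. Atp2b4 then led in red blood cells and Atp2a1 in B cell-like cells. Both led in B cell-like cells at a clustering resolution of 2, and in bone-like cells with up to 30% mitochondrial UMIs. Atp2b2 led in OHC-like cells, not SGN-like, without doublets, under the limits of 3000 genes, and when mitochondrial, ribosomal and haemoglobin genes were taken out of the total. Those limits also ended the calls of Atp2b2 in IHC-like against non-hair cells (edgeR adjusted p = 0.0607) and of Atp2a3 in SGN-like cells (edgeR adjusted p = 0.138). In the fits direction turned only in values that passed no test. With SGN-like cells left out of the non-hair cells, an alternative chosen after seeing the data, the log2 fold changes that turned in OHC-like cells were -0.015 for Atp2b1, -0.20 for Atp2b4 and 0.26 for Atp2a2, and in IHC-like cells 0.62 for Atp2a2. Atp2b4 in OHC-like against non-hair cells had log2 fold changes of -0.11 with DESeq2, -0.0051 with its size factors, -0.34 under the limits of 3000 genes, -0.0745 with up to 30% mitochondrial UMIs, -0.0073 with pump and calcium genes in the clustering, -0.27 without doublets, and -0.62 to 0.615 with a library left out. Atp2b4 in IHC-like against non-hair cells was 0.0157 with no filter, 0.23 with up to 30% mitochondrial UMIs and -0.47 to 0.33 with a library left out, and in macrophage-like cells -0.0035 under the limits of 3000 genes and -0.615 to 0.91 with a library left out. Atp2a2 under those limits was 0.0447 in OHC-like and 0.23 in IHC-like against non-hair cells. Levels moved too: of the P28 means of Atp2b1, Atp2b2, Atp2a2 and Atp2a3 read under alternatives, 67 moved by more than their SD and 85 did not. Their ratio to the main level ran from 0, under the limits of 3000 genes, to 2.82, with up to 30% mitochondrial UMIs. Few UMIs limit Atp2a1, Atp2b4 and, outside SGN-like cells, Atp2b3.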

Other observations

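In OHC-like cells of P14, the muscle-type calcium genes Ryr1 and Casq1 stood above the muscle pump Atp2a1 in level. Ryr1, the release channel of skeletal muscle, stood at 119, 4.98 and 7.93 CPM in library order, and Casq1, a calcium buffer of the muscle reticulum, at 43.2, 5.81 and 7.93 CPM, beside 1.60, 2.07 and 4.33 CPM of Atp2a1. Slc8a1, another sodium and calcium exchanger, stood at 68.2, 67.6 and 59.1 CPM in OHC-like against 5.85, 9.28 and 8.72 CPM in non-hair cells (log2 fold change 3.09, SE 0.20, edgeR adjusted p = 0.00173) and was also higher in macrophage-like cells (log2 fold change 3.44, SE 0.47, edgeR adjusted p = 0.00236). The uniporter subunit Mcub stood at 25.7, 22.4 and 21.5 CPM in macrophage-like cells against 0.202, 4.49 and 4.24 CPM (log2 fold change 3.16, SE 0.67, edgeR adjusted p = 0.0142). These genes were named from the lists, and Casq1 was picked out after its values were seen. Casq1 was not called in OHC-like against non-hair cells. Without SGN-like cells among the latter it did not pass either (log2 fold change 1.76, SE 0.63, edgeR adjusted p = 0.0548).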
